A study of Mus musculus with 2 samples.

Results

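A set of 67 genes, of the 18049 in the table whose symbols were eligible, was listed at 0 FPKM in *Dnmt1*-WT jejunal muscle and at 1 FPKM or more in *Dnmt1*-KO muscle, which is 0.371% of them. FPKM, the unit of the table, counts sequenced fragments scaled to transcript length and library size. The genes were chosen by those 2 values, so the absence in *Dnmt1*-WT and the level in *Dnmt1*-KO describe the set and are not a result about it. Of the 18159 genes listed, 76 passed both thresholds, and 9 of these were left out because their symbols start with Rhox, Mage, Tex, Mir, Snor or Scarna.

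RNA was taken from the smooth muscle layer of the jejunum, peeled from the mucosa, of C57BL/6 mice 15 days old, and was sequenced as 1 mRNA library for each of the 2 genotypes. Both libraries are labelled as carrying the Tg(Myh11-cre,-EGFP) transgene of line 2Mik/J and *Dnmt1*lox/lox alleles. They are told apart by the genotype labels *Dnmt1* WT and *Dnmt1* KO, while the free-text description of both names the knockout genotype. The paper writes its *Dnmt1*-WT mice as smMHC Cre-eGFP/+, with no floxed allele in that designation. Mice of both sexes stand behind each library, and how their RNA was combined is not given in the sources used here. The Cre recombinase is driven by the promoter of *Myh11*, the smooth muscle myosin heavy chain, so that the other cells of the muscle wall are not its target. The targeted gene, *Dnmt1*, stood at 11.58 FPKM in the library labelled WT and 7.58 FPKM in that labelled KO. Where a gene is given with a pair of values, the *Dnmt1*-WT value comes first. With 1 library a genotype there is no replicate error, no test was possible, and every difference below is one between 2 libraries.

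DNMT1 copies CpG methylation onto the new strand after DNA replication. Methylation of CpG-rich promoters is a known means by which many germ-cell genes are kept silent in body tissues, and several such genes are known to be expressed when methylation is lost. Promoters with few CpG sites, common among genes of single differentiated cell types, are controlled mainly by the transcription factors of those cells.

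The levels of the 67 genes were low. They ran from 1.01 FPKM for *Spag16* to 11.79 FPKM for *Ccl8*, with a median of 1.86 FPKM, against a median of 6.17 FPKM over all genes above 0 in the *Dnmt1*-KO library. Of those genes, 27.7% lay under the median of the set and 66.5% under its highest level. Of the 67 genes, 9 reached 5 FPKM, 31 reached 2 FPKM and 27 lay under 1.5 FPKM. In the *Dnmt1*-KO library 54 of them were assigned 1 transcript variant, 11 had 2 and 2 had 3. By RefSeq, 61 are protein-coding, 4 are long non-coding RNAs and 2 are transcribed pseudogenes.

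The lower bound of 1 FPKM fell within a continuous range of values. Just inside it lay *AF067063* (1.04 FPKM), *Ccl22* (1.03 FPKM), *Cntf* (1.02 FPKM) and *Spag16* (1.01 FPKM). Just outside it, also listed at 0 in *Dnmt1*-WT, lay *Klrg1* (0.99 FPKM), *E330017A01Rik* (0.98 FPKM), *Gm53* (0.96 FPKM), *Col22a1* (0.95 FPKM) and *Gm9733* (0.92 FPKM). On the other bound, *Aldh3b2*, *Gm21002*, *Klb* and *Ltb* missed the set because they were listed at 0.03 FPKM in *Dnmt1*-WT, the lowest value above 0 in either library, and they reached 1.65, 2.46, 1.0 and 1.73 FPKM in *Dnmt1*-KO. The next, *1700102H20Rik*, went from 0.04 to 1.71 FPKM. The number of reads that separates 0 from 0.03 FPKM is unknown. By the paper's supplement, the *Dnmt1*-WT library had more mapped reads than the *Dnmt1*-KO library.

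The count was not symmetric between the libraries. In the opposite direction, 12 genes were listed at 0 in *Dnmt1*-KO and at 1 FPKM or more in *Dnmt1*-WT, or 0.0665% of the 18049. Among all 18159 genes, 953 were listed at 0 in *Dnmt1*-WT and above 0 in *Dnmt1*-KO (5.25%), and 530 were the other way round (2.92%). The 12 genes were led by the beta-globin gene *Hbb-b1* (46.41 FPKM), the pancreatic elastase gene *Cela2a* (12.80 FPKM) and the trypsin gene *Try4* (5.63 FPKM). *Hbb-bs*, a further beta-globin gene, was at 75.01 FPKM in *Dnmt1*-WT and 304.43 FPKM in *Dnmt1*-KO. Near-identical copies were sought only for the 67 genes, so how reads were divided between these globin genes was not examined. Of the 7 pancreatic acinar markers examined, 5 were at 0 in *Dnmt1*-KO. Of the 5 markers at 1 FPKM or more in either library, 4 were at most halved, against 3.79% of all such genes. *Cela2a*, *Cpa1* and *Pnlip* among these 4 belong to the 12 genes, so their halving follows from the rule. *Ctrb1* went from 13.26 to 0.63 FPKM, and *Cela1*, not halved, from 4.26 to 2.34 FPKM. The 7 markers summed to 34.48 and 2.97 FPKM. The set of 67 genes contained no pancreatic enzyme gene.

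**Figure D1:**
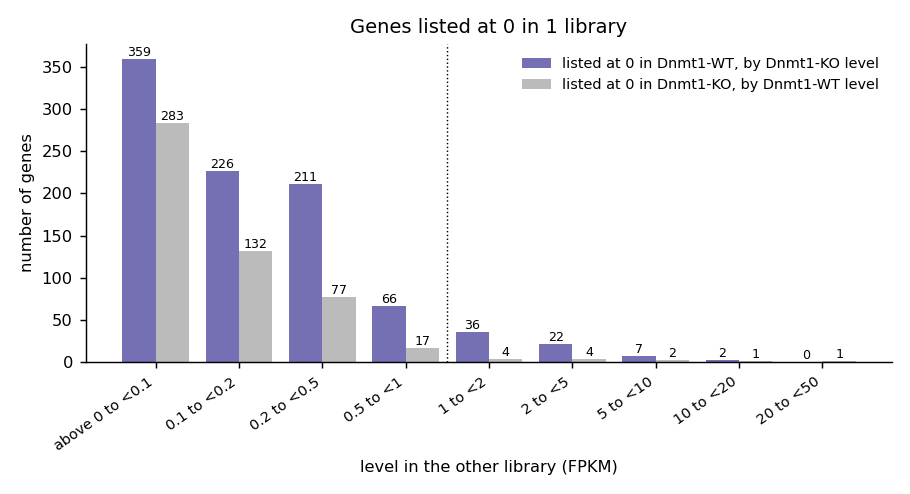
Number of genes listed at 0 FPKM in 1 library by their level in the other library, in FPKM classes, with the number above each bar; violet bars are genes at 0 in *Dnmt1*-WT, grey bars genes at 0 in *Dnmt1*-KO, symbols left out of the set excluded. The dotted line marks 1 FPKM, to the right of which stand the 67 genes of the set and the 12 of the opposite direction; 66 and 17 genes lie in the class just below it.

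Sorted by the tissue in which each gene is usually expressed, the set fell into 14 germ line genes, 14 leukocyte genes, 8 Paneth cell genes, 7 genes of other tissues, 5 acute phase or secreted defence genes, 4 striated muscle genes and 2 histone H4 genes, while 13 had no known tissue. The sorting was made by hand from general knowledge after the values were seen. The class medians were highest for the acute phase genes (8.24 FPKM) and the striated muscle genes (3.765 FPKM). They were 2.38 FPKM for the Paneth cell genes, 1.93 FPKM for the leukocyte genes and 1.49 FPKM for the germ line genes.

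**Figure D2:**
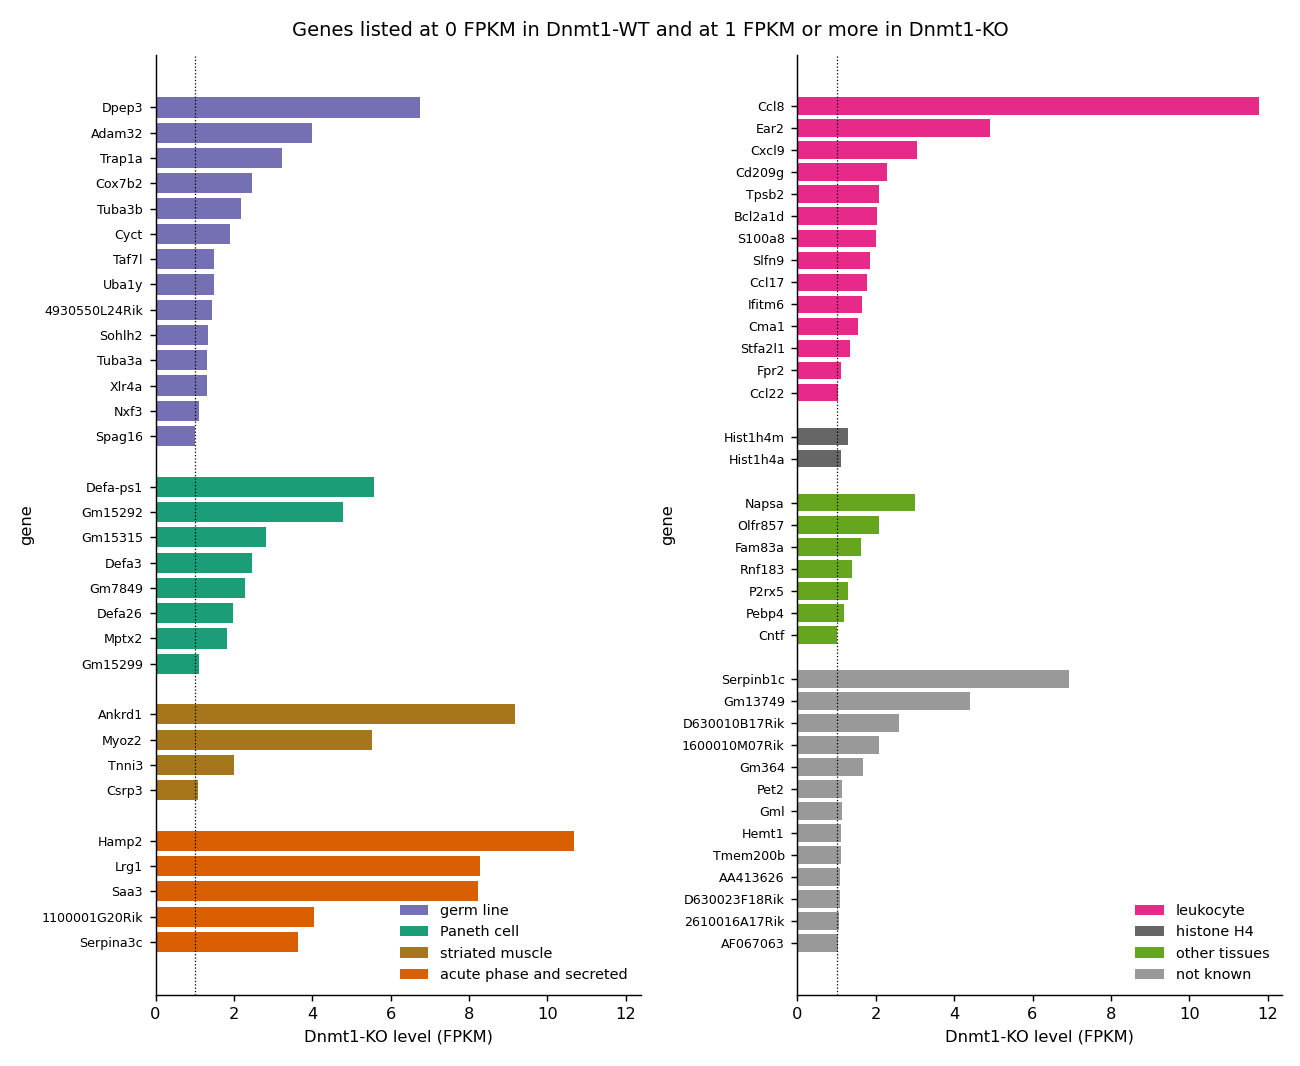
Level of each of the 67 genes in the *Dnmt1*-KO library, in FPKM, grouped by usual tissue; 1 bar is 1 gene in 1 library, so there is no error bar, all are at 0 FPKM in *Dnmt1*-WT, and the dotted line marks 1 FPKM. *Ccl8*, *Hamp2* and *Ankrd1* are the highest with 11.79, 10.69 and 9.18 FPKM, and 36 of the 67 bars end below 2 FPKM.

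The 14 germ line genes are those of testis, sperm and early germ cells. *Dpep3*, a membrane dipeptidase of the testis, was the highest at 6.75 FPKM. *Adam32*, a membrane protein of the ADAM family made in the testis, followed with 3.99 FPKM. *Trap1a*, which encodes the tumour antigen P1A and is otherwise known from testis and placenta, reached 3.22 FPKM. These 3 genes lie on chromosomes 8, 8 and X. *Cox7b2*, a testis form of a cytochrome c oxidase subunit, was at 2.46 FPKM, and *Cyct*, the testis cytochrome c, was at 1.90 FPKM. The testis alpha-tubulin genes *Tuba3b* and *Tuba3a* were at 2.19 and 1.32 FPKM. The germ line genes of the set also include factors of transcription. *Taf7l*, the germ-cell form of a TFIID subunit, was at 1.49 FPKM, and *Sohlh2*, a bHLH factor of spermatogonia and oocytes, was at 1.35 FPKM. The remaining genes were *Uba1y*, the Y-linked copy of the gene for the ubiquitin-activating enzyme (1.49 FPKM), *4930550L24Rik*, an X-linked gene with the synonym mage-k1 in RefSeq (1.44 FPKM), *Xlr4a* of the X-linked lymphocyte-regulated family (1.32 FPKM), *Nxf3*, an X-linked relative of the RNA export factors (1.11 FPKM), and *Spag16*, an axoneme protein of sperm tails and motile cilia (1.01 FPKM).

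The 250 bases upstream of a RefSeq start site are shown for 5 germ line genes, chosen because they include the highest, the 2 tubulin copies and X-linked members, with each CpG in capitals, 5′ to 3′ on the gene's strand (GRCm38.p6). They lie at chr8:105979420-105979669 (minus strand, *Dpep3*), chrX:139333433-139333682 (plus, *Trap1a*), chrX:134476491-134476740 (minus, *Taf7l*), chr6:145615713-145615962 (plus, *Tuba3b*) and chr6:125286082-125286331 (minus, *Tuba3a*), and hold 10, 7, 14, 14 and 8 CpG sites in that order.
Dpep3: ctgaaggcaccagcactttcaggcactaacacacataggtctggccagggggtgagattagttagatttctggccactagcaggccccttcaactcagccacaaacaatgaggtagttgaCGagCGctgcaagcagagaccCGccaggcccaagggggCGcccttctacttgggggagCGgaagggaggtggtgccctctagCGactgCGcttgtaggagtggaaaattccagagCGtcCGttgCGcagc
Trap1a: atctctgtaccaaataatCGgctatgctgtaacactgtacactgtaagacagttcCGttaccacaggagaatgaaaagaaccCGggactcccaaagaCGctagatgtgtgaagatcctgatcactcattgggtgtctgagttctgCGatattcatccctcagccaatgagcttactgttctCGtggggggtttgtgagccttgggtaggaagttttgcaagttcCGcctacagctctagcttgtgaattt
Taf7l: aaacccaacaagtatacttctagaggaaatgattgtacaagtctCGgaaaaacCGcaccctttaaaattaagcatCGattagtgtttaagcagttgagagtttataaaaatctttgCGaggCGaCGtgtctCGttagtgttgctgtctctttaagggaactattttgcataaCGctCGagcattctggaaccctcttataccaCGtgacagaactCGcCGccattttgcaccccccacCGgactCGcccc
Tuba3b: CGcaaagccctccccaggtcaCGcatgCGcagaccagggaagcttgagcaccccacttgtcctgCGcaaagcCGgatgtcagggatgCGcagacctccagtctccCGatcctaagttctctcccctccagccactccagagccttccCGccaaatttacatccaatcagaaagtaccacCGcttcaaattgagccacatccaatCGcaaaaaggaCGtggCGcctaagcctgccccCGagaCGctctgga
Tuba3a: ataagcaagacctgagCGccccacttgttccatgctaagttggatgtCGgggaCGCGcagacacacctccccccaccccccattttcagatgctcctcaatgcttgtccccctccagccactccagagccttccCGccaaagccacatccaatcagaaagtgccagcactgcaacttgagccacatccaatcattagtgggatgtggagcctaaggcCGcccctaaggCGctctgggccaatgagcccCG

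A list of 64 germline genes was examined beside the set, of which 49 were listed in the table. Of these, 34 were at 0 in *Dnmt1*-WT, and 29 of the 34 (85.3%) were above 0 in *Dnmt1*-KO, against 63.1% of all eligible genes at 0 in *Dnmt1*-WT. Of the 34, 9 (26.5%) reached 1 FPKM, against 4.55% of those genes, and all 9 are in the set. The rule used the same values and the list was chosen with results of these data known, so nothing is read from these shares. Below the bound, *Slc25a31*, a germ-cell ADP/ATP carrier, was at 0.87 FPKM, *Xlr4c* at 0.85 FPKM and *Asz1*, a protein of the piRNA pathway, at 0.78 FPKM. The other genes of the list differed in direction. *Xlr4b* was at 0.25 and 1.38 FPKM, *Stag3*, a meiotic cohesin subunit, at 0.15 and 0.63 FPKM, *Xlr3a* at 0.17 and 0.58 FPKM and *Zcwpw1* at 0.70 FPKM in both libraries. *Ddx4*, the germ-cell helicase Vasa, was at 0.04 and 0 FPKM, *Sycp3* of the synaptonemal complex was at 0.81 and 0.09 FPKM, and *Dazl* at 0 and 0.08 FPKM. *Tdrd12*, *Rnf17*, *Dppa2*, *Tsga8* and *Esx1* were at 0 in both libraries.

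Beside the genes of the set, 2 short lists of germ-cell markers and 1 of somatic testis genes were examined. Of 5 listed genes of spermatogonia to spermatids, none reached 1 FPKM in either library, with summed levels of 0.66 FPKM in *Dnmt1*-WT and 0.54 FPKM in *Dnmt1*-KO. The protamine gene *Prm1* was at 0.49 and 0 FPKM. Of 5 oocyte genes, *Zp3* and *Figla* were at 0 in both libraries and the sum was 0.61 and 0.84 FPKM. The 4 testis somatic genes summed to 3.38 and 4.20 FPKM, with the steroid carrier gene *Star* at 1.92 and 1.52 FPKM and *Dhh*, a hedgehog ligand of Sertoli and Schwann cells, at 0.72 and 1.92 FPKM. Placental genes were represented by 2 of 6, *Ascl2* at 0.19 and 0.03 FPKM and the pregnancy-specific glycoprotein gene *Psg23* at 0.10 and 7.37 FPKM.

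Near-identical copies limited the values of some germ line genes. *Tuba3a* and *Tuba3b* shared 96.5% of their bases over 1447 bases of transcript, so that reads could be divided between them. *Xlr4a* was 98.8% identical to *Xlr4c* and 97.3% identical to *Xlr4b*, which was not at 0 in *Dnmt1*-WT but went from 0.25 to 1.38 FPKM. *Nxf3* overlaps *Bex4* in RefSeq, listed at 6.62 and 7.62 FPKM, and *Trap1a* overlaps *C330013F16Rik*, listed at 0.04 and 0.09 FPKM. On the Y chromosome, *Uba1y* was the only gene of the set. *Ddx3y* (5.96 and 8.58 FPKM), *Eif2s3y* (8.13 and 7.67 FPKM), *Kdm5d* (0.93 and 1.75 FPKM) and *Uty* (1.30 and 1.18 FPKM) were present in both libraries, *Dnmt1*-WT first, so male RNA was in both.

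**Figure D3:**
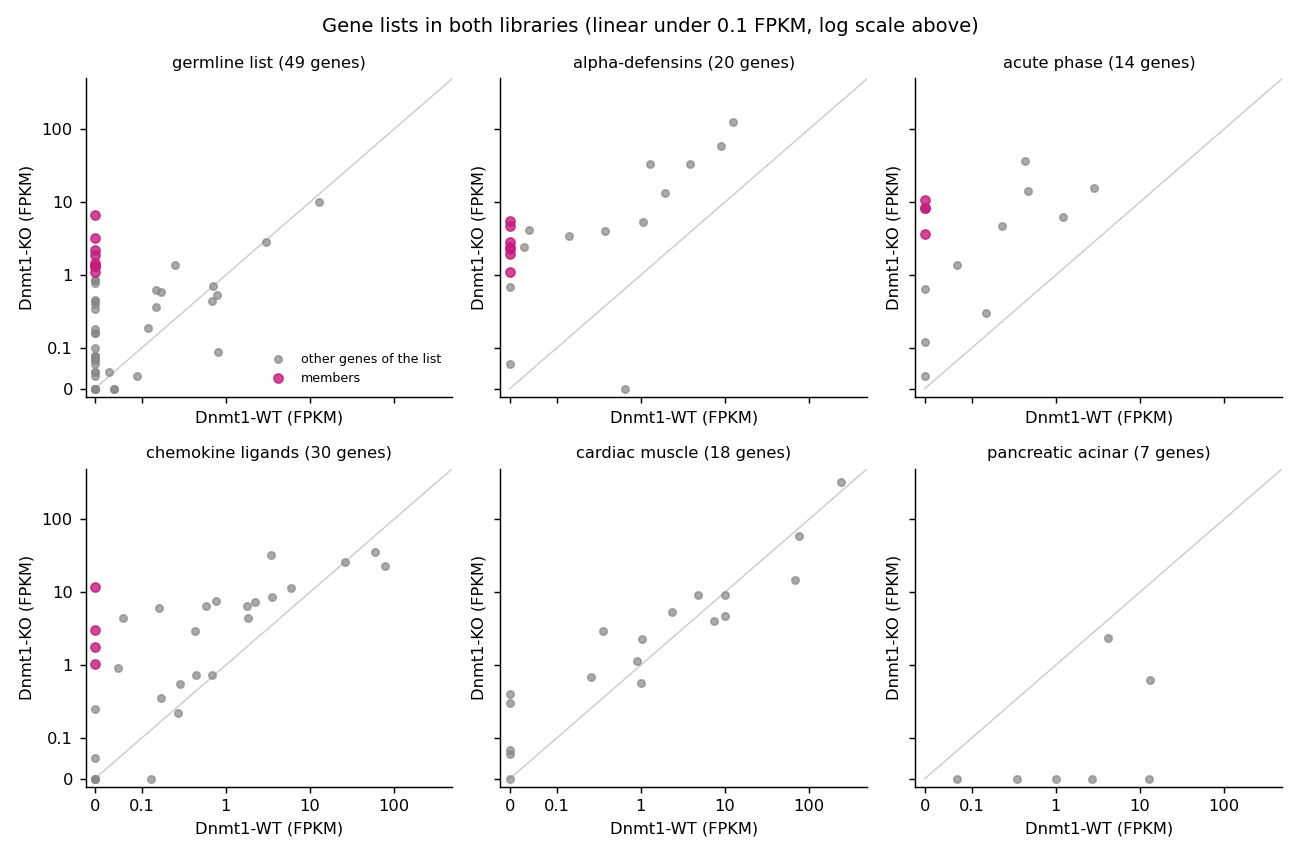
Level in *Dnmt1*-WT (horizontal) and *Dnmt1*-KO (vertical) of each listed gene of 6 lists, in FPKM on axes that are linear under 0.1 FPKM and logarithmic above; 1 point is 1 gene, with genes of the set in magenta, others in grey, and the line of equal levels. The set stands on the left edge, at 0 FPKM in *Dnmt1*-WT; of the other alpha-defensins only *Defa2* lies below the line, of the acute phase genes none does, and all 7 pancreatic acinar genes lie below it.

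Of the 8 Paneth cell genes, 7 are alpha-defensins, the antimicrobial peptides that Paneth cells release into the crypts of the small intestine. *Defa-ps1*, an alpha-defensin pseudogene, was at 5.58 FPKM. *Gm15292* (Defa40 in RefSeq) was at 4.79 FPKM, *Gm15315* (Defa34) at 2.81 FPKM, *Defa3* at 2.47 FPKM, *Gm7849* (Defa42) at 2.29 FPKM, *Defa26* at 1.97 FPKM and *Gm15299* (Defa27) at 1.12 FPKM. *Mptx2*, a pentraxin of the gut mucosa, was the eighth gene, at 1.83 FPKM. All 7 alpha-defensins lie on chromosome 8 among the 20 alpha-defensin genes listed, at chr8:21025545-21735471. The other genes of that cluster, apart from *Defa2* (0.66 and 0 FPKM), were higher in *Dnmt1*-KO as well. *Defa24* was at 12.43 FPKM in *Dnmt1*-WT and 125.32 FPKM in *Dnmt1*-KO, *Gm15284* at 9.0 and 59.24 FPKM, *Defa21* at 1.29 and 33.75 FPKM and *Defa22* at 3.90 and 33.13 FPKM. Of the 13 alpha-defensins outside the set, 10 reached 1 FPKM in either library and all 10 were at least doubled, against 9.62% of all genes at that level. The 7 of the set were at 0 in *Dnmt1*-WT by the rule. The sum over the other 13 was 30.86 and 284.83 FPKM.

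Sequence likeness also bore on this family. *Defa3* shared 99.7% of 397 bases with *Defa17* (1.93 and 13.29 FPKM), and *Gm7849* shared 95.7% of 488 bases with *AY761184* (0.96 and 9.34 FPKM). *Defa26* and *Gm15292* were 98.1% identical to each other over 372 bases. Of the defensins of the set, *Defa3* thus has copies that were above 1 FPKM in *Dnmt1*-WT, *Defa17* and, with 95.1% identity, *Defa24*, and its 0 there rests on how shared reads were divided. Markers of Paneth cells other than defensins also differed. Lysozyme 1 (*Lyz1*) was at 1.17 and 13.61 FPKM, matrilysin (*Mmp7*) at 0 and 0.77 FPKM and *Ang4* at 0.28 and 0.51 FPKM. All 5 Paneth cell markers examined were higher in *Dnmt1*-KO, as were 49.9% of all genes listed, with sums of 15.81 and 153.50 FPKM, 2 of the 5 being alpha-defensins. Of the 6 enterocyte markers 5 were higher, with sums of 276.23 and 563.19 FPKM, and of the 5 goblet cell markers 4 were higher, with sums of 63.44 and 94.28 FPKM. The part of mucosal cells left on the muscle in the values of these 8 genes was not tested. In RNA from whole tissue, a change in the number of cells of a type and a change in the RNA of each cell cannot be told apart.

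The 4 striated muscle genes encode proteins of the sarcomere and its Z-disc. *Ankrd1*, a stress-responsive ankyrin protein of the heart that binds titin, was at 9.18 FPKM. *Myoz2*, a calsarcin of heart and slow muscle fibres, was at 5.52 FPKM. *Tnni3*, cardiac troponin I, was at 2.01 FPKM, and *Csrp3*, muscle LIM protein, at 1.09 FPKM. Of the 18 other genes of cardiac muscle examined, 11 were higher in *Dnmt1*-KO, against 49.9% of all genes listed, and 4 of the 11 were at 0 in *Dnmt1*-WT. The list had a median log2 ratio of FPKM + 0.1 of 0.57, against 0.00 over all genes. Of the 12 that reached 1 FPKM in either library, 3 were doubled or more and 2 halved or less, against 9.62% and 3.79% of all genes. The 3 were the atrial myosin light chain gene *Myl7* (0.36 and 2.91 FPKM), the actinin gene *Actn2* (2.36 and 5.43 FPKM) and *Tnnc1*. *Tnnc1*, the troponin C gene, was at 1.04 and 2.27 FPKM. *Myl7* reached 1 FPKM only in *Dnmt1*-KO, so choosing genes at that level in either library fixes its doubling. *Actn2* and *Tnnc1* reached it in both libraries. The myosin light chain genes *Myl2* and *Myl3* were at 0 in both and at 0 and 0.30 FPKM, the alpha-myosin gene *Myh6* at 0.26 and 0.68 FPKM, and titin (*Ttn*) at 0 and 0.06 FPKM. The 2 at most halved were *Myh7*, at 10.18 and 4.78 FPKM, and phospholamban (*Pln*), at 68.13 and 14.91 FPKM. Of the 5 listed skeletal muscle genes, 4 reached 1 FPKM and 3 of these were at least doubled, *Acta1* (5.17 and 12.22 FPKM), *Mylpf* (0.81 and 1.78 FPKM) and *Tnnt3* (2.35 and 8.57 FPKM), while *Ckm*, the most abundant, was at 96.73 and 41.41 FPKM. All 8 smooth muscle markers were lower in *Dnmt1*-KO, summing to 16618 and 12061 FPKM, and the 2 at most halved were *Myh11* (2685 and 1256 FPKM) and *Smtn* (394.94 and 168.81 FPKM).

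The 5 acute phase and secreted defence genes had the highest median of the classes, 8.24 FPKM, while the leukocyte genes had the highest sum, 38.49 against 34.89 FPKM. *Hamp2*, a hepcidin gene, was at 10.69 FPKM. *Lrg1*, leucine-rich alpha-2-glycoprotein of the serum, was at 8.28 FPKM, and *Saa3*, a serum amyloid A made outside the liver by macrophages and fat cells, was at 8.24 FPKM. *1100001G20Rik* (Wfdc21 in RefSeq), a small protein with a WAP domain, was at 4.04 FPKM, and *Serpina3c*, a serpin related to antichymotrypsin, at 3.64 FPKM. Related genes that were not at 0 were higher too. Haptoglobin (*Hp*) went from 0.43 to 36.92 FPKM, lipocalin 2 (*Lcn2*) from 0.47 to 14.28 FPKM and *Serpina3n* from 2.89 to 15.60 FPKM. Of 10 acute phase genes listed besides the 4 in the set, 3 were at 0 in *Dnmt1*-WT, all 10 were higher in *Dnmt1*-KO, and the 6 at 1 FPKM or more in either library were all at least doubled, against 9.62%. That list was written after the values were seen. All 5 hepatocyte markers were higher in *Dnmt1*-KO, against the same 49.9%, with sums of 1.99 and 7.88 FPKM. The 3 that reached 1 FPKM were at least doubled, *Ttr* (0.94 and 2.55 FPKM), *Apoa2* (0.36 and 2.18 FPKM) and *Ahsg* (0.34 and 1.91 FPKM). These 3 reached it only in *Dnmt1*-KO, and for *Apoa2* and *Ahsg* the filter fixes the doubling. Albumin (*Alb*) was at 0.21 and 0.85 FPKM. All 6 adipocyte markers were higher in *Dnmt1*-KO, against the same 49.9%, from 6.07 to 329.76 FPKM in sum, with adiponectin (*Adipoq*) at 0.85 and 46.71 FPKM. The part of fat cells in the acute phase values was not tested.

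The 14 leukocyte genes include 4 chemokines. *Ccl8*, a chemoattractant of monocytes, was at 11.79 FPKM, the highest level of the 67 genes. *Cxcl9*, induced by interferon gamma, was at 3.06 FPKM, and the CCR4 ligands *Ccl17* and *Ccl22* were at 1.77 and 1.03 FPKM. Besides these 4, 26 Ccl and Cxcl genes were listed, of which 5 were at 0 in *Dnmt1*-WT. Of the 14 among the 26 at 1 FPKM or more in either library, 10 were at least doubled, against 9.62%, among them *Ccl5* (0.16 and 6.12 FPKM), *Ccl19* (0.06 and 4.52 FPKM) and *Ccl6* (3.45 and 32.27 FPKM), while *Cxcl14*, the 1 gene at most halved, went from 79.00 to 22.80 FPKM, against 3.79%.

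The other leukocyte genes belong to several cell types. *Ear2*, a ribonuclease of eosinophils, was at 4.91 FPKM, while its 96.4% identical copy *Ear1* was at 0.41 FPKM and *Prg2*, the eosinophil major basic protein, at 0.26 FPKM, both from 0. The mast cell proteases *Tpsb2* and *Cma1* were at 2.08 and 1.55 FPKM. The mast cell carboxypeptidase *Cpa3* went from 0.06 to 1.15 FPKM, and the mast cell receptor *Kit*, also present on interstitial cells of Cajal, was at 38.95 and 38.10 FPKM. *Cd209g*, a lectin related to DC-SIGN, was at 2.28 FPKM, and all 7 dendritic cell genes examined outside the set were higher in *Dnmt1*-KO, against 49.9% of all genes listed, with sums of 2.38 and 7.21 FPKM. *S100a8*, a calgranulin of neutrophils and monocytes, was at 2.00 FPKM, with its partner *S100a9* at 0.33 and 0.44 FPKM. *Bcl2a1d*, a survival protein of blood cells, was at 2.04 FPKM, with copies *Bcl2a1b* (99.1% identical, 0.65 and 4.28 FPKM) and *Bcl2a1a* (98.8%, 0.15 and 1.26 FPKM). *Slfn9*, a Schlafen gene, was at 1.86 FPKM, *Ifitm6* at 1.65 FPKM, the myeloid protease inhibitor *Stfa2l1* at 1.35 FPKM and the formyl peptide receptor *Fpr2* at 1.12 FPKM. The 4 general leukocyte markers were all more than 2-fold higher in *Dnmt1*-KO, against 9.62% of genes at 1 FPKM or more, *Ptprc* (CD45) at 0.80 and 2.71 FPKM and *Cd52* at 5.14 and 25.88 FPKM, and summed to 21.77 and 72.12 FPKM. T cell markers stayed under 1 FPKM, with a sum of 0.13 and 1.72 FPKM. Outside the set, and against the same 49.9%, all 5 eosinophil genes listed were higher, with sums of 0.10 and 1.16 FPKM, as were 6 of 8 mast cell genes (39.96 and 42.62 FPKM, or 1.01 and 4.52 FPKM without *Kit*) and 5 of 7 neutrophil genes (8.58 and 25.24 FPKM). Without *Lcn2*, which is also in the acute phase list, the other 6 neutrophil genes summed to 8.11 and 10.96 FPKM. These lists were written after the values were seen, and 3 of the 7 dendritic cell, 3 of the 5 eosinophil, 3 of the 8 mast cell and 2 of the 7 neutrophil genes were at 0 in *Dnmt1*-WT, from where no lower value is possible. The part of leukocyte number in the values of the 14 genes was not tested.

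The 250 bases upstream are shown for 4 genes of the other classes, chosen as the highest of the leukocyte, acute phase and striated muscle classes and the defensin with a window, in the same notation. They lie at chr11:82114935-82115184 (plus strand, *Ccl8*), chr7:30924182-30924431 (minus, *Hamp2*), chr19:36119845-36120094 (minus, *Ankrd1*) and chr8:21456518-21456767 (minus, the defensin *Gm7849*), and hold 1, 2, 7 and 1 CpG sites in that order. *Ankrd1* thus has as many in this stretch as the germ line gene *Trap1a*.
Ccl8: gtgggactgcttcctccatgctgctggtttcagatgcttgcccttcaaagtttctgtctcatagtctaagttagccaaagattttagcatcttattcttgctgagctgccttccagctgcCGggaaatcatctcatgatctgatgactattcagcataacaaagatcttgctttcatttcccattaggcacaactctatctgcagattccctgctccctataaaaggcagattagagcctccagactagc
Hamp2: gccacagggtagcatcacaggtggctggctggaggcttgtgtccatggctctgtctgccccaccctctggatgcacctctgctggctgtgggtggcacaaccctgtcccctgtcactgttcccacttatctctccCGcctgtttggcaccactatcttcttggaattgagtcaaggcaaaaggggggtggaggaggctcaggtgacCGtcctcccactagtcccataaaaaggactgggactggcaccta
Ankrd1: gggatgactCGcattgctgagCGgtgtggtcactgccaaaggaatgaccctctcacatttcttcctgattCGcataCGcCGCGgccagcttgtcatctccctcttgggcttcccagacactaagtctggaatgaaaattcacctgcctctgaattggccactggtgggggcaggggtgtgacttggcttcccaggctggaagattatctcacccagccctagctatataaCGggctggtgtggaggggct
Gm7849: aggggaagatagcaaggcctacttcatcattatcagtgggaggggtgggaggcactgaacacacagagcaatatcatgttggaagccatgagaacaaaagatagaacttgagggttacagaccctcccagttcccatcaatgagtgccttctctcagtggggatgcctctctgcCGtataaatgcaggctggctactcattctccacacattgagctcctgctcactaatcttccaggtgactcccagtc

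CpG content was measured in the window from 250 bases before to 50 bases after the start site. Observed/expected CpG, the count of CpG relative to that given by the numbers of C and G, is near 1 where no CpG has been lost. Windows existed for 46 of the 67 genes (68.7%), so a value over the whole set is void, as it is for the Paneth cell genes (2 of 8). Among the 12 germ line genes with a window, of 14, the ratio had a median of 0.55 and the windows held a median of 11 CpG sites, and none had 4 or fewer. Among the 13 leukocyte genes with a window, of 14, the median ratio was 0.17, and 11 windows had 4 CpG sites or fewer. Over all windows of the promoter reference, 38.0% had 4 or fewer. The ranges of these classes did not overlap, since the lowest germ line value was 0.40 (*Xlr4a*) and the highest leukocyte value was 0.38 (*Ccl22*). The 4 acute phase and 4 striated muscle windows had medians of 0.08 and 0.29. Over all 32851 windows of the promoter reference the median was 0.38 and 35.8% reached 0.6. These are more than the 14095 eligible listed genes with a window. Fewer than 80% of the listed genes had a window, so their values are void as references too. The median was 0.70 over the eligible listed genes (78.1% with a window), 0.26 over those that went from 0 to above 0 (75%) and 0.25 over those at 0 in both libraries (75.4%). Of the windows of the eligible listed genes, 60.2% reached 0.6 and 15.4% had 4 CpG sites or fewer. A ratio of 0.6 was reached by 4 of the 12 germ line windows, those of *4930550L24Rik*, *Tuba3b*, *Spag16* and *Taf7l*. The classes were drawn up by hand, so no test was made.

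The windows were searched for CACGTG, a palindrome bound by bHLH proteins, and for TTCCCGCC with its other strand GGCGGGAA, an E2F-type motif; neither contains the other. TTCCCGCC was found in *Tuba3a* and *Tuba3b* among the 12 germ line windows, and in 2.19% of all windows. In both sequences above it reads ttccCGcc, though the last 20 bases of the *Tuba3a* window lay in no transcript of that gene. CACGTG was found in 1 of the 12, that of *Taf7l*, and in 7.15% of all windows. Among the 26 windows of germline list genes that went from 0 to above 0, CACGTG was in 6 (23.1%) and TTCCCGCC in 4 (15.4%). No leukocyte window held either. These matches say only that the letters are present.

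**Figure D4:**
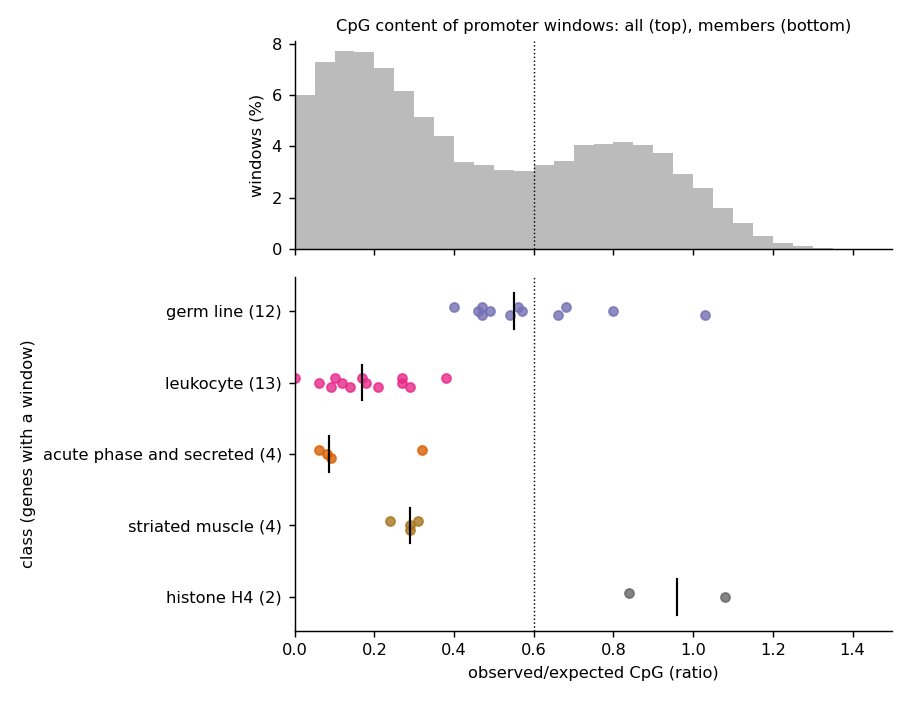
Observed/expected CpG ratio of promoter windows from 250 bases before to 50 bases after a start site: top, share of all 32851 windows in steps of 0.05, in %; bottom, genes of the set by class, 1 point a gene, spread vertically for sight only, with a black line at the class median. Germ line genes lie between 0.40 and 1.03 and leukocyte genes between 0 and 0.38; the dotted line marks 0.6.

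The 67 genes lay on 19 of 21 chromosomes, with none on 10 and 18. Chromosome 8 held 12 of them (17.9%), against 5.17% of the 17947 listed genes with a position, and X held 7 (10.4%), against 3.6%. The share on X depended on the bound, at 3.23% of the genes from 2 FPKM and 5.9% of those at any value above 0. On chromosome 8 the defensin cluster accounted for 7 of the 12. Without the alpha-defensins, 5 of 60 genes (8.33%) lay there, namely *Dpep3*, *Adam32*, *Cd209g*, *Ccl17* and *Ccl22*. On X, 5 of the 7 were germ line genes, *Trap1a*, *Taf7l*, *4930550L24Rik*, *Xlr4a* and *Nxf3*, and the others were *Gm364* (1.68 FPKM) and *Pet2* (1.15 FPKM, Dcaf8l in RefSeq). Of the 9 genes left out by symbol, 4 lay on X, and with them the share was 11 of 76 (14.5%). None of the 12 genes of the opposite direction lay on X.

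**Figure D5:**
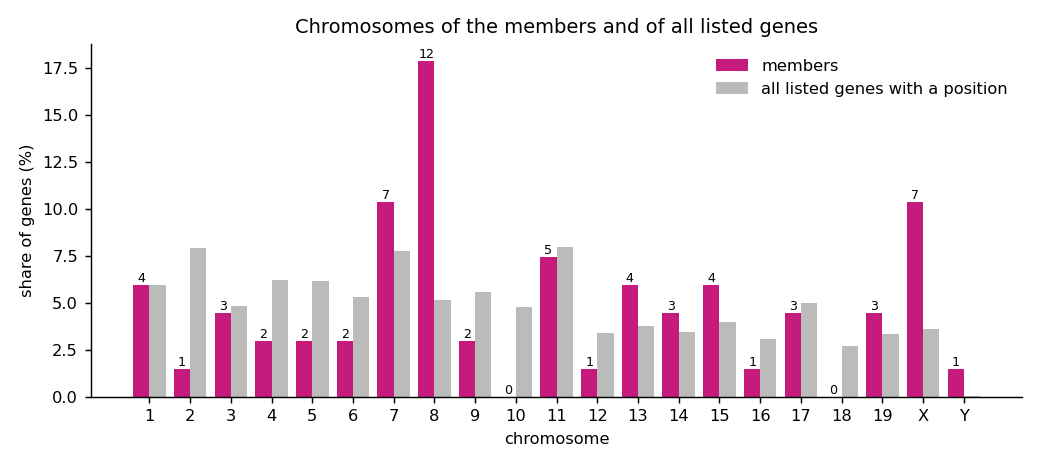
Share of the 67 genes (magenta, with their number above each bar) and of the 17947 listed genes with a RefSeq position (grey) on each chromosome, in %. Chromosome 8 and X hold 12 and 7 genes of the set, 17.9% and 10.4%, and chromosomes 10 and 18 hold none.

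Apart from the defensins, 2 pairs of the set lay within 100 kb. *Ccl22* and *Ccl17* were 58.0 kb apart on chromosome 8 with 1 listed gene between them. *Gml* and *Hemt1*, of the Ly6 superfamily, overlap on chromosome 15 and were at 1.14 and 1.12 FPKM. Of the genes around them, *Ly6d* was at 0.34 and 4.87 FPKM, *Ly6k* at 0.07 and 1.37 FPKM, *Ly6e* at 93.57 and 193.30 FPKM and *Ly6i* at 0 and 0.17 FPKM. *Lynx1* (15.03 and 11.71 FPKM) and *2010109I03Rik* (0.63 and 0.37 FPKM) were lower in *Dnmt1*-KO. *Gm364* and *4930550L24Rik* were neighbours among the listed genes of X but lay 1420 kb apart.

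The histone H4 genes *Hist1h4m* and *Hist1h4a*, which are transcribed in dividing cells, were at 1.28 and 1.10 FPKM. Of the other 10 H4 genes listed, 3 were higher in *Dnmt1*-KO, against 49.9% of all genes listed, and 5 reached 1 FPKM in either library. Of these 1 was at least doubled, *Hist1h4i* (0.44 and 2.53 FPKM), against 9.62% of all genes. Against 3.79% of all genes 2 were halved or less, *Hist1h4d* going from 1.65 to 0.33 FPKM and *Hist1h4k* from 1.38 to 0.20 FPKM. *Hist1h4i* reached 1 FPKM only in *Dnmt1*-KO, and *Hist1h4d* and *Hist1h4k* only in *Dnmt1*-WT. With their low values in the other library, the filter fixes this doubling and these halvings. The 10 genes summed to 15.19 and 14.21 FPKM. The 2 windows of the set had CpG ratios of 0.84 and 1.08.

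The 7 genes of other tissues come from several organs. *Napsa*, an aspartic protease of lung and kidney, was at 2.99 FPKM, and *Olfr857*, an olfactory receptor, was at 2.07 FPKM. Of the 76 olfactory receptor genes listed, 14 went to 0 and 54 were at 0 in *Dnmt1*-WT. Of the 54, 18 (33.3%) were above 0 in *Dnmt1*-KO, against 63.1% of all eligible genes at 0 there, and *Olfr857* alone reached 1 FPKM. *Fam83a* was at 1.61 FPKM, the kidney ubiquitin ligase *Rnf183* at 1.4 FPKM, the ATP-gated channel *P2rx5* at 1.28 FPKM and *Pebp4* at 1.18 FPKM. *Cntf*, the ciliary neurotrophic factor of Schwann cells, was at 1.02 FPKM, but it overlaps the readthrough gene *Zfp91Cntf* (3.90 and 2.79 FPKM) and shares 851 bases with *Zfp91* (20.96 and 17.06 FPKM), so its reads cannot be assigned to it with certainty.

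Among the 13 genes without a known tissue, *Serpinb1c*, a serpin of the ovalbumin clade, was the highest at 6.93 FPKM. The long non-coding RNAs *Gm13749*, *D630010B17Rik*, *1600010M07Rik* and *2610016A17Rik* were at 4.40, 2.60, 2.07 and 1.06 FPKM. *Tmem200b* (1.11 FPKM) overlaps *Gm12992* (14.58 and 11.07 FPKM) and *Epb4.1* (9.01 and 7.22 FPKM), and *AA413626* (1.09 FPKM), a transcribed pseudogene, overlaps *Thoc5* (10.81 and 11.07 FPKM). The library kit keeps no strand, so reads of overlapping genes on either strand cannot be told apart. In all, 7 of the 67 genes overlapped another listed gene, 4 of them one at 1 FPKM or more in *Dnmt1*-WT, and 9 had a near-identical listed copy. The remaining 2 genes, both protein-coding, *D630023F18Rik* and *AF067063*, were at 1.08 and 1.04 FPKM.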

How the data were processed

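Gene expression was measured by RNA-Seq in 1 *Dnmt1*-WT and 1 *Dnmt1*-KO library. The authors mapped reads to mm10 and deposited FPKM for 18159 gene symbols, with 2 decimals. The submitters' processing notes name TopHat 1.4.1 and Cufflinks 2.0.2. The deposited table also holds the number of transcript variants in each library, used here, and the authors' ratio of the libraries, which was not used. Cufflinks divides reads shared by several transcripts by a statistical estimate, so values of near-identical copies depend on each other. The FPKM summed to 429698 (*Dnmt1*-WT) and 460845 (*Dnmt1*-KO) and 16632 and 17055 genes were above 0. Read counts per gene are unknown, low values showed no steps of whole reads, and no interval or floor is given. None of 15 housekeeping genes was at 0.

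The members and lists were chosen with earlier results of these data known. The tissue classes and the cardiac, mast cell, neutrophil, eosinophil, dendritic cell, Y-linked, acute phase, histone H4, alpha-defensin and chemokine lists were written after the values were seen. Genes are named if they reached 2 FPKM, belong to a class, family or list described, lie next to a threshold or beside adjacent members, lead the opposite set or are copies of members. *Hbb-bs*, overlapping genes, *Psg23*, *Ly6i*, *Alb* and other marker genes were named for comparison.

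All 67 genes matched RefSeq (GRCm38.p6), 58 by symbol and 9 by synonym, as did 18055 of all listed genes. Copies were sought with BLAST 2.17.0 (blastn) among GENCODE M21 transcripts of listed genes, in place of the protein comparison planned, at 95% identity over 80% of both lengths. The orientation of windows was checked, and the last 20 bases of 41 of the 46 lay in a transcript of the gene. The exceptions were *Saa3*, *Cox7b2*, *S100a8*, *Serpinb1c* and *Tuba3a*, whose sequence is printed above. The selection and the CpG count were tested on simulated data. Python 3.11.15, pandas 2.3.3, numpy 2.4.6, scipy 1.17.1 and matplotlib 3.10.9 were used.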

Additional observations from a re-analysis of the deposited data

How the results depend on the processing

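No paired analysis was possible because each genotype has 1 library, and for the same reason no replicate could be left out. The number of genes followed the bounds. It was 929 for any *Dnmt1*-KO value above 0, 133 from 0.5 FPKM, 31 from 2 FPKM and 9 from 5 FPKM, and 109 with up to 0.1 FPKM allowed in *Dnmt1*-WT. Among genes at 0 in *Dnmt1*-WT, a log2 ratio of 1 or more was reached by 570 genes with a pseudocount of 0.1, by 133 with 0.5 and by 67 with 1, which by construction are the genes at or above the pseudocount in *Dnmt1*-KO. It stayed between 55 and 79 with 0.05 FPKM allowed in *Dnmt1*-WT, under the 3 scalings (62, 62 and 69), with no symbols left out (76) and without near-identical copies (58) or predicted genes (55). Settings added after seeing the data gave 60 without overlapping genes and 65 without genes sharing 100 bases at 98% identity with a gene at 1 FPKM or more in *Dnmt1*-WT. The share on X was 3.23% from 2 FPKM, against 10.4%, and the share of alpha-defensins 0.969% for any value above 0, against 10.4%. Of the germline list, 29 genes appeared at any value above 0, 12 from 0.5 FPKM and 3 from 2 FPKM, against 9. The germ line share of the genes from 2 FPKM was 16.1%, against 20.9%. Of the 26 windows of germline list genes that appeared at any level, some of which are also in the germ line class, 13 reached a CpG ratio of 0.6 (50%), against 33.3% in the class. The number of reads behind each value is unknown, which limits the values near 0 most.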

Other observations

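Some gene families with no gene in the set were also examined for genes that appeared in the *Dnmt1*-KO library. Such genes were above 0 there and at 0 in *Dnmt1*-WT. Of the 18 listed genes starting with Klr, most of them receptors of natural killer cells, 15 were at 0 in *Dnmt1*-WT, 12 of these (80%) were above 0 in *Dnmt1*-KO, against 63.1% of all eligible genes at 0 in *Dnmt1*-WT, and 3 reached 0.5 FPKM, while no gene of the family went to 0. Of 6 Ssx genes, cancer-testis antigens on X, all 5 at 0 in *Dnmt1*-WT appeared and none reached 0.5 FPKM. Of 5 Mup genes, which encode major urinary proteins, all 4 at 0 appeared and 1 disappeared. None of the 3 Prl genes and none of the 3 Taar genes at 0 in *Dnmt1*-WT appeared. Of 355 zinc finger genes starting with Zfp, 7 were at 0 in *Dnmt1*-WT, 5 of these appeared and 3 others disappeared. These families were picked after their counts were seen, and over all genes 5.25% appeared and 2.92% disappeared.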
